A study of Homo sapiens with 45 samples.

Results

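The regions described here are stretches of the genome of HCT116, a human cell line derived from colon cancer, that carried lamin B1 together with 3 repressive histone marks, H3K9me2, H3K9me3 and H3K27me3, in control cells. Chromosomes 1 to 22 of GRCh38 were divided into 50 kb bins. A bin was kept when at least 50% of its bases lay in a called control domain of each of the 4 antibodies. This gave 1356 bins, or 67.8 Mb, which were 7.94% of the 17078 bins in control lamin B1 domains and 2.36% of all 57422 bins. The bins were thus chosen by their coverage in the 4 control lists, and those values are given below as a description only. Of the 17078 lamin B1 bins, 8291 carried H3K9me2 and H3K9me3 without H3K27me3, 2735 carried H3K9me2 and H3K27me3 without H3K9me3, 3250 carried H3K27me3 alone and 1025 carried no mark.

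Cells were transfected with 25 nM of a nontargeting siRNA or of siRNA against HNRNPK and were collected after 72 h. HNRNPK encodes an abundant nuclear protein that binds C-rich RNA and single-stranded DNA. The 45 samples comprised 35 chromatin immunoprecipitation or input libraries and 10 RNA libraries. Lamin B1 and H3K9me3 were profiled in 3 control and 3 knockdown libraries, H3K27me3 in 2 and 2, and H3K9me2 in 3 control libraries. The chromatin values used here are 7 lists of called domains, 1 for each antibody and siRNA. H3K9me2 in knockdown cells was not analysed here. Domain values therefore had no replicates, their read depth is unknown, and differences between lists were not tested. RNA was compared between 4 control libraries (siNTC5) and 4 knockdown libraries (siHNRNPK). Both groups were made with 2 library kits, TruSeq for the first 2 replicates and Ligation for the last 2. A further pair of control libraries (Scramble) came in separate tables, with RNA purified by another kit, and entered no main comparison. All groups are of 1 cell line, and knockdown was transient.

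The nuclear lamina is a meshwork of lamins under the inner nuclear membrane, and the long chromatin regions that touch it, lamina-associated domains, are poor in active genes. H3K9me2 and H3K9me3 mark heterochromatin and are laid down by SET-domain enzymes such as EHMT2 and SETDB1. H3K9me3 is bound by HP1 proteins. H3K27me3 is made by Polycomb repressive complex 2, often covers silent developmental genes, and is commonly found towards the borders of lamina-associated domains.

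HNRNPK transcript level fell from 884 ± 78.0 CPM (counts per 1e6 counts of a library; SD, n = 4) to 199 ± 45.3 CPM, or -2.17 ± 0.06 on the log2 scale (SE; edgeR quasi-likelihood test, adjusted p = 7.29e-15). The two-sided exact permutation p was 0.0286, which is the lowest value possible with 4 libraries a group. The 8 libraries held between 12107280 and 23633851 counts. The labels do not say whether libraries came from separate cultures, so p-values measure the spread between these samples. All 6 epithelial markers looked for, EPCAM and CDH1 among them, were present at 85.3 CPM or more in every library. In bulk RNA, more cells of a type and more RNA per cell cannot be told apart.

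Few genes of these regions were expressed, so the sequences shown are the RefSeq promoters (GRCh38.p14) of the 4 tested genes with the largest rise (ISX-AS1, TENM3, MITF and FOXP1), of KIAA1217, the sole tested gene that fell, and of ZNF440. Each runs from 250 bases before to 50 bases after the start of the transcript, with every CG step in capitals, because CG-rich and CG-poor starts were both present. ISX-AS1, TENM3 and ZNF440 start in a bin with all 3 marks. The bins holding the starts of MITF and KIAA1217 carried lamin B1, H3K9me2 and H3K27me3, and that of FOXP1 carried H3K27me3 without lamin B1. ZNF440 was added after its values were seen.
ISX-AS1: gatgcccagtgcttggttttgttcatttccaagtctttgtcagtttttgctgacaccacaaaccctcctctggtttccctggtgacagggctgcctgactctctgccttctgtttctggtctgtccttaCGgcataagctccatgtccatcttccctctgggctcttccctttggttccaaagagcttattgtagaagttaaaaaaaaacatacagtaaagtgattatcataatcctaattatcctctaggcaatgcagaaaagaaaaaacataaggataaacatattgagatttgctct
TENM3: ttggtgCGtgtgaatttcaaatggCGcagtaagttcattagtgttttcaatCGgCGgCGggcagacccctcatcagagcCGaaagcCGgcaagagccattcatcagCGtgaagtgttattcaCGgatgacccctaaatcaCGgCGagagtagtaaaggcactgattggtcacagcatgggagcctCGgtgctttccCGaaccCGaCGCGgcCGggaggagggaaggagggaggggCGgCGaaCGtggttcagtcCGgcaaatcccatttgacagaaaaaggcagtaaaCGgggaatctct
ZNF440: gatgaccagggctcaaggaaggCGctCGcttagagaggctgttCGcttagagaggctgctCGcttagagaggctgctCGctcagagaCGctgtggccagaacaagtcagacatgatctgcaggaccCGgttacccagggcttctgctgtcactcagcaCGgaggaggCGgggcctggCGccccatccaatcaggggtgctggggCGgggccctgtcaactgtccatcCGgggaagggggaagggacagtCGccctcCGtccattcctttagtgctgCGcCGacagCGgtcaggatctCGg
MITF: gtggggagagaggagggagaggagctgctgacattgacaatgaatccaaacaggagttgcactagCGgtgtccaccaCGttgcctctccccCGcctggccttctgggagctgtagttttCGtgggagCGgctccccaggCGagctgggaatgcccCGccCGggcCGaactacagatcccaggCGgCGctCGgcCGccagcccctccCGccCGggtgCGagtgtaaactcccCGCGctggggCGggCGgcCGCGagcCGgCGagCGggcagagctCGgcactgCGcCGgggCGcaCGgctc
FOXP1: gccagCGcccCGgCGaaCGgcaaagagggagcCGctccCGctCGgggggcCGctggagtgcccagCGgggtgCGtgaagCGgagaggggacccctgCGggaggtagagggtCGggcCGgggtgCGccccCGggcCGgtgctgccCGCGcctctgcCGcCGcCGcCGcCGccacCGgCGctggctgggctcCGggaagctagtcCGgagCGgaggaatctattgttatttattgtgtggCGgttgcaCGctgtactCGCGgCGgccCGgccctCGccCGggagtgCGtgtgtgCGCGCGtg
KIAA1217: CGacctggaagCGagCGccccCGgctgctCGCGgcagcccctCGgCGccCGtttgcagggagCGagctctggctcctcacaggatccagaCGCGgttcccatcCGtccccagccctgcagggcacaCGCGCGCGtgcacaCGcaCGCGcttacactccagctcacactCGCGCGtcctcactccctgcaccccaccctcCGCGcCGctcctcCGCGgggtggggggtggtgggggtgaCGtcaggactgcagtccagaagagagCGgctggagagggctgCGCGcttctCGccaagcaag
These promoters lie at chr22:34997867-34998166 (minus strand) for ISX-AS1, chr4:182143713-182144012 (plus) for TENM3, chr19:11814023-11814322 (plus) for ZNF440, chr3:69739214-69739513 (plus) for MITF, chr3:71583679-71583978 (minus) for FOXP1 and chr10:23694477-23694776 (plus) for KIAA1217. The TENM3 start in the promoter table lies inside the gene's full RefSeq span. The promoter of ISX-AS1 held 1 CG step, that of ZNF440 18, that of TENM3 22, that of MITF 30, that of KIAA1217 33 and that of FOXP1 41. CCCTCCC, a C-rich stretch of the kind HNRNPK binds, was searched on both strands. It was found in MITF from base 201 of the plus strand and in TENM3 from base 228 read on the minus strand, and not in the windows of the other 4. TATAAA, the core of the TATA box, was found in none of the 6 windows. A match to these letters is a description and not a binding site.

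Promoters in the regions as a whole were poorer in CG than promoters elsewhere. Of 291 promoters with their start in a bin with all 3 marks, 25.4% held 10 or more CG steps, against 55.8% of all 26246 promoters on chromosomes 1 to 22. Their median GC content was 45.7%, against 58.3% for all. TATAAA was present on either strand in 18.6% of them and in 12% of all, and CCCTCCC in 15.8% and 25.2%. The other lamin B1 classes had similar values: median GC was 44.0% with H3K9me2 and H3K9me3, 46.5% with H3K9me2 and H3K27me3, and 47.3% with H3K27me3 alone.

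Most runs of bins with all 3 marks were short and lay at the border between other kinds of lamin B1 chromatin. The bins formed 373 runs of adjacent bins with a median length of 100 kb, and 140 runs (37.5%) were a single bin. The 31 runs of 10 or more bins held 472 bins (34.8%). In 232 runs (62.2%), one neighbouring bin carried lamin B1, H3K9me2 and H3K9me3 and the other carried lamin B1, H3K9me2 and H3K27me3. These runs held 623 of the 1356 bins (45.9%), so by length most of the regions had other neighbours. The next most frequent arrangement, 38 runs (10.2%), had lamin B1 with H3K27me3 alone in place of the latter. A further 25 runs (6.7%) had H3K9me2 and H3K27me3 on both sides. Read the other way, passages between the lamin B1 chromatin with H3K9me2 and H3K9me3 and that with H3K9me2 and H3K27me3 were counted. Only direct passages and those through 1 other class entered, which gave 284. Passages through more than 1 class were left out. Bins with all 3 marks filled 232 of these (81.7%), 51 (18.0%) changed from one bin to the next, and 1 passed through other marks.

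Distances to the domain edges placed the regions between the interior and the rim of lamin B1 domains. The median distance of a bin with all 3 marks to the nearest control lamin B1 edge was 320 kb. It was 785 kb for bins with H3K9me2 and H3K9me3, 190 kb for bins with H3K9me2 and H3K27me3 and 125 kb for bins with H3K27me3 alone. The nearest H3K9me3 edge was at a median of 110 kb, against 640 kb for bins with H3K9me2 and H3K9me3. Of 803 control lamin B1 domains, 244 held at least 1 such bin. These had a median length of 1777.5 kb, against 450 kb for the other 559, and a longer domain has more room for such a bin.

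Each domain carries a score from the authors, whose scale is not given in the sources used here. Within the control lists, bins with all 3 marks had a median lamin B1 score of 1.45, against 1.19 over all bins in lamin B1 domains. It was 1.39 with H3K9me2 and H3K27me3, 1.24 with H3K9me2 and H3K9me3 and 0.823 with H3K27me3 alone. In the knockdown lamin B1 list, the covered bins with all 3 marks had a median of 1.49, against 1.45 over all bins. The control H3K9me3 score of bins with all 3 marks was lower than that of all H3K9me3 bins (1.28 against 1.65). Their control H3K9me2 score (1.31 against 1.49) and H3K27me3 score (1.11 against 1.25) were lower too. These comparisons stay within a list and describe the domains that the rule selected.

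The 3 longest runs were gene-poor. The longest, chr7:41650001-42800000 (1150 kb, 23 bins), holds INHBA, which encodes a subunit of activin, and GLI3, a transcription factor of Hedgehog signalling. Knockdown domains covered 23 of its bins for lamin B1, 22 for H3K9me3 and 22 for H3K27me3. The second, chr2:66100001-67200000 (22 bins), holds MEIS1, a homeobox transcription factor, and all 22 bins were covered in each of the 3 knockdown lists. The third, chr3:116800001-117900000 (22 bins), holds no protein-coding gene, and 22, 19 and 22 of its bins were covered. The last 2 runs have H3K9me2 and H3K27me3 bins on both sides, so they are not of the commonest arrangement.

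After HNRNPK knockdown most of the regions were still in domains of the 3 antibodies compared. Lamin B1 domains covered 1300 of 1356 bins (95.9%), H3K9me3 domains 1309 (96.5%) and H3K27me3 domains 1327 (97.9%), each by at least 50% of the bin. All 3 lists covered 1228 bins (90.6%). Lamin B1 alone was missing from 52 bins, H3K9me3 alone from 43, H3K27me3 alone from 29, and lamin B1 and H3K9me3 together from 4. Coverage of lamin B1 bins with H3K9me2 and H3K9me3 was similar, at 98.1%. It was 60.1% in bins with H3K9me2 and H3K27me3, 17.2% in bins with H3K27me3 alone, 19.0% in bins with no mark and 70.7% over all control lamin B1 bins. Each list is 1 measurement, and neighbouring bins share a domain, so these shares have no error from replicates.

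**Figure D1:**
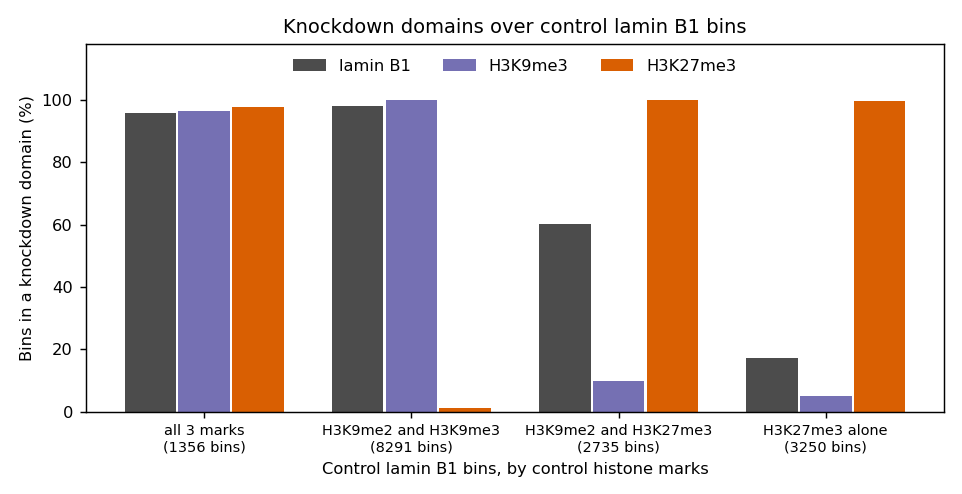
Share of control lamin B1 bins (vertical axis, percent) that lay in a knockdown domain of lamin B1, H3K9me3 or H3K27me3, by the histone marks of the bin in control cells (horizontal axis). Bins with all 3 marks were covered at 95.9%, 96.5% and 97.9%, and lamin B1 coverage of bins with H3K27me3 alone was 17.2%.

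Coverage was lower for bins close to the threshold. Among the 77 bins whose lowest control coverage was 50 to under 60%, knockdown lamin B1, H3K9me3 and H3K27me3 domains covered 90.9%, 89.6% and 88.3%. Among the 94 bins just outside the rule, with a lowest coverage of 40 to under 50%, the values were 93.6%, 85.1% and 74.5%. In the 1010 bins wholly covered in all 4 control lists they were 97.4%, 96.8% and 98.9%. Bins at an end of their run lacked knockdown lamin B1 in 39 of 606 cases (6.44%), and bins inside a run in 17 of 750 (2.27%).

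Around the 232 runs that separate the other 2 classes, the domain lists differed between control and knockdown mainly on the H3K27me3 side. In the first bin on that side, mean H3K9me3 coverage was 9.44% of bases in the control list and 26.7% in the knockdown list, and lamin B1 coverage was 99.3% and 87.5%. In the second bin lamin B1 coverage was 83.2% and 54.8%. In the first bin on the H3K9me3 side, H3K27me3 coverage was 9.7% in the control list and 21.0% in the knockdown list, while lamin B1 coverage was 100.0% and 99.3%. These flanking bins are fixed by the choice of classes to be under 50% for the missing mark and at least 50% for lamin B1 in the control lists, with no such limit on the knockdown lists, so differences in these directions can follow from the choice alone. The 623 bins within these runs were covered at 99.7%, 97.8% and 98.1% by knockdown lamin B1, H3K9me3 and H3K27me3.

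**Figure D2:**
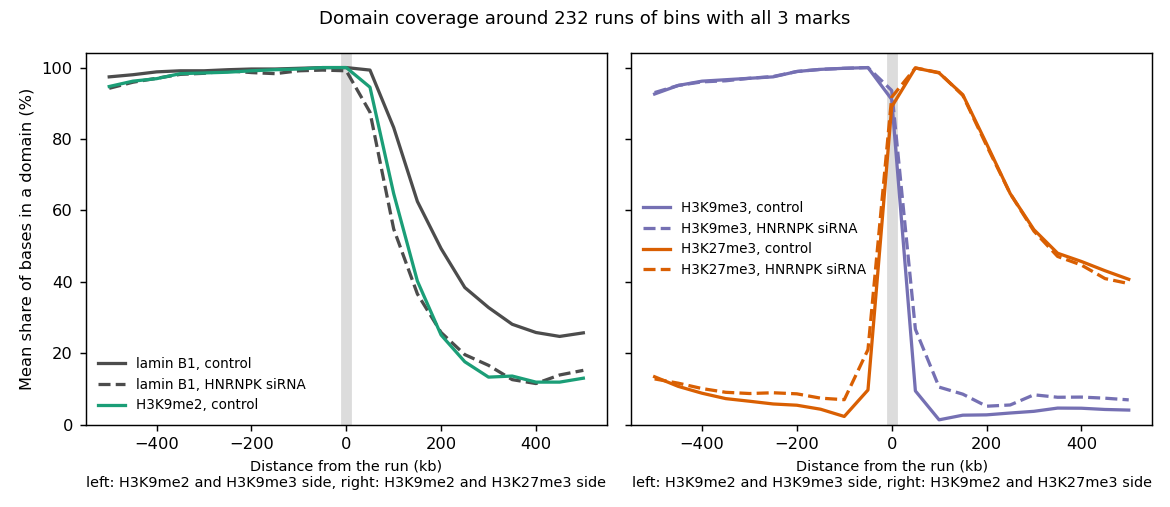
Mean share of bases in a called domain (vertical axis, percent) in 50 kb bins by distance in kb from 232 runs of bins with all 3 marks (grey bar), with the H3K9me2 and H3K9me3 side on the left and the H3K9me2 and H3K27me3 side on the right. Solid lines are control lists and dashed lines HNRNPK siRNA lists; 50 kb to the right, lamin B1 coverage was 99.3% in the control list and 87.5% in the knockdown list, and H3K9me3 coverage 9.44% and 26.7%.

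Counted by bin, 210 of the 232 first bins on the H3K27me3 side (90.5%) were in a knockdown lamin B1 domain and 62 (26.7%) in a knockdown H3K9me3 domain. On the other side, 230 of 232 (99.1%) were in a lamin B1 domain and 40 (17.2%) in a knockdown H3K27me3 domain. Knockdown lamin B1 covered fewer of the bins with H3K9me2 and H3K27me3 at larger distances from the nearest bin with all 3 marks. It was 88.7% of 309 adjacent bins, 73.6% of 397 bins at 2 to 4 bins, 60.3% of 204 bins at 5 to 9 bins and 52.4% of 1825 bins farther away. Bins with H3K9me2 and H3K9me3 had no such gradient, with 96.8% to 99.2% covered at the same distances.

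The stretch where H3K9me3 and H3K27me3 domains overlap was longer in the knockdown lists. Within 200 kb of the 232 runs, bases in both kinds of domain summed to 31.7 Mb in the control lists and 38.8 Mb in the knockdown lists, and the median per run was 87.5 and 115 kb. The overlap was longer at 177 runs, shorter at 36 and equal at 19. The windows include the flanking bins whose control coverage the choice of classes limits, so a longer knockdown overlap can follow from that choice too. Limits on the score or other windows left it longer at 167 to 186 runs. Over chromosomes 1 to 22, the overlap of both marks was 88.38 Mb in the control lists and 135.0 Mb in the knockdown lists, so a longer overlap was not restricted to these borders. H3K9me3 domains as a whole covered 598.2 and 732.4 Mb, and H3K27me3 domains 771.7 and 744.2 Mb. The part of the total called length in the border values was not tested.

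The 56 bins without knockdown lamin B1 lay in 30 stretches on 11 chromosomes and were unevenly spread. Chromosome 17 had 15 of its 48 bins among them, chromosome 1 had 13 of 140, chromosome 19 had 9 of 10 and chromosome 22 had 5 of 35. None were found on 11 chromosomes, among them chromosome 6 with 91 bins and chromosome 13 with 69. On chromosome 19, bins with H3K9me2 and H3K9me3 were covered at 83.2%, and on chromosome 22 at 75.6%, also below the 98.1% of that class as a whole. On chromosome 17 that class was covered at 99.2%, and on chromosome 13, which had no uncovered bin with all 3 marks, at 92.4%. Of the 373 runs, 343 were covered throughout, 19 had no covered bin and 11 were covered in part.

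**Figure D3:**
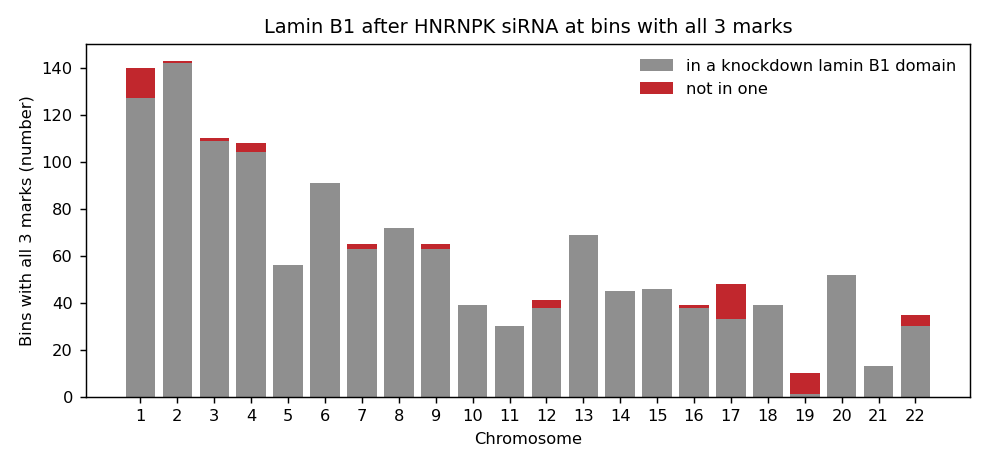
Number of bins with all 3 marks (vertical axis) on each of chromosomes 1 to 22 (horizontal axis), divided by whether a knockdown lamin B1 domain covered at least 50% of the bin (grey) or not (red). On chromosome 17 the bar holds 48 bins, 15 of them without knockdown lamin B1, and on chromosome 19 10 bins, 9 of them without it.

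The uncovered bins had lower control scores of lamin B1 and of both H3K9 marks. Their median control lamin B1 score was 0.609, against 1.46 in the 1300 bins that were covered. The H3K9me3 score was 0.722 against 1.31, the H3K9me2 score 0.997 against 1.34, and the H3K27me3 score was higher, 1.76 against 1.11. The part of these lower control scores in the missing knockdown coverage was not tested.

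The 3 longest uncovered stretches each held several genes. The longest, chr17:3050001-3450000 (400 kb, 8 bins), holds 11 protein-coding olfactory receptor genes of the OR1 and OR3 families, which encode odorant receptors, and SPATA22, a meiotic gene. The next, chr17:35300001-35500000 (200 kb), holds SLFN11, SLFN12, SLFN12L and SLFN13 of the Schlafen family. The third, chr1:12650001-12800000 (150 kb), holds AADACL3, AADACL4, CFAP107, PRAMEF1 and PRAMEF12. For H3K9me3 the longest uncovered stretch was chr7:3600001-3900000 (300 kb) in SDK1, a cell adhesion gene. For H3K27me3 it was chr2:89950001-90250000 (300 kb), which holds variable segments of the immunoglobulin kappa locus, a repeated region where short reads can map to more than 1 copy. Read mapping was examined in none of these stretches, and the 3 without lamin B1 also hold several genes of a family.

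A protein-coding gene was touched by 38 of the 56 uncovered bins (67.9%) and by 532 of the 1300 covered bins (40.9%). Of the 124 protein-coding genes that lie by at least 50% in bins with all 3 marks, 38 (30.6%) lay mostly in uncovered bins, or 13.6 genes per Mb against 1.32 per Mb in covered bins. Of these 38, 17 were on chromosome 17, 10 on chromosome 19, 8 on chromosome 1 and 3 on chromosome 12. They included 14 of the 29 olfactory receptors and 9 of the 13 zinc finger genes, the latter all on chromosome 19.

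In all, 768 RefSeq genes lay in the regions by at least 50% of their length: 124 protein-coding genes, 322 long noncoding RNAs, 280 pseudogenes, 20 immunoglobulin variable segments, 14 microRNAs and 8 other genes. Protein-coding density was 1.83 per Mb, against 6.66 over all bins, 1.64 in lamin B1 bins with H3K9me2 and H3K9me3 and 2.35 in those with H3K9me2 and H3K27me3. Olfactory receptors made up 29 of the 124 protein-coding genes (23.4%, against 2.04% of all). Their share was 16.1% in lamin B1 bins with H3K9me2 and H3K9me3 and 19.5% in those with H3K27me3 alone. They lay on chromosomes 1, 9, 11, 12, 14 and 17. Genes named ZNF, C2H2 zinc fingers of which many bind and silence transposons, made up 13 (10.5%, against 2.64% of all), with 9 on chromosome 19, 3 on chromosome 5 and 1 on chromosome 9. In lamin B1 bins with H3K9me2 and H3K9me3 their share was larger, 24.9%. No protocadherin or classical cadherin gene was among the 124.

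Of the 768 genes, 245 were listed in the count table and 11 passed the filter on low counts. A gene that was silent in control cells can pass that filter only through the knockdown libraries, so the 11 are not a sample of the regions. ISX-AS1 passed in that way and the other 10 also passed in control libraries alone. Over all 13933 tested genes, 71.5% were called at an adjusted p under 0.05, with 35.5% higher and 36.1% lower, and the median log2 fold change was 0.0. Of the 11, 10 were called, 9 higher and 1 lower, with a median of 0.57. In the neighbouring classes the median was also above that of all genes. It was 0.50 for 102 tested genes in H3K9me2 and H3K9me3 (64 higher, 6 lower), 0.97 for 32 in H3K9me2 and H3K27me3 (22 higher, 1 lower) and 0.30 for 135 in H3K27me3 alone (60 higher, 30 lower). Without ISX-AS1, 9 of 10 were called, 8 of them higher, and the median was 0.51. These counts describe the genes that passed and not the regions. Groups did not overlap in 8 of the 11 (7 of 10 without ISX-AS1), all higher. Over all tested genes, 56.5% did not overlap in either direction, and 28.5% were higher without overlap. By the position of the start site instead of the body, 9 genes were tested and 8 were called, all higher. ISX-AS1, which passed only through the knockdown libraries, was among these 8. This assignment added DLG2 (0.931, adjusted p = 0.00433) and ZNF112 (0.653, adjusted p = 0.00123), and LINC00923, which was not called (-0.387, adjusted p = 0.278). Whether these added genes also passed in control libraries alone is not given here.

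**Figure D4:**
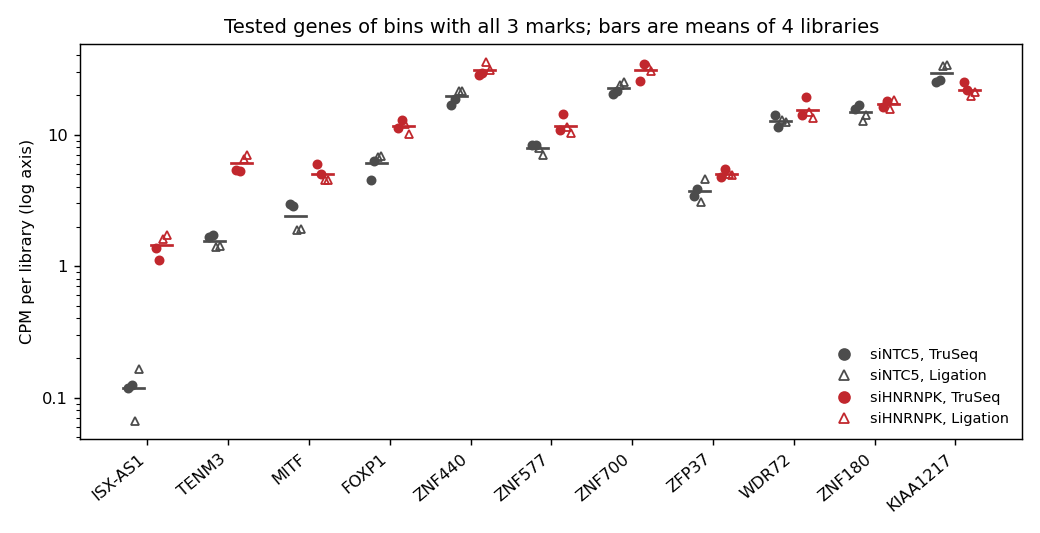
CPM (vertical axis, log scale) in each library for the 11 tested genes of bins with all 3 marks (horizontal axis), with bars for the mean of 4 libraries. Circles are TruSeq and triangles Ligation libraries; the siHNRNPK libraries (red) lie above all siNTC5 libraries (grey) for 8 genes, from ISX-AS1 to ZFP37, and overlap them for WDR72, ZNF180 and KIAA1217.

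ISX-AS1, a long noncoding RNA on chromosome 22 that RefSeq lists as LINC02885, had the largest difference. Its 4 control libraries held 2, 3, 1 and 3 counts and its knockdown libraries 21, 15, 19 and 21. The summed counts per library total differed 11.56-fold, with an exact 95% interval of 5.781 to 26.25 that covers counting error only. The fitted log2 fold change was 3.49 ± 0.40, given as a description, because the gene was tested only through its knockdown libraries. All 3 of its bins with all 3 marks were covered by knockdown lamin B1, H3K9me3 and H3K27me3 domains. The promoter printed above, with 1 CG step, starts in such a bin.

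TENM3, which encodes a teneurin, a transmembrane protein of neuronal connectivity, was at 1.66, 1.71, 1.4 and 1.42 CPM in control libraries and 5.34, 5.27, 6.49 and 7.0 CPM in knockdown libraries. The groups were far apart, differing by 1.93 ± 0.18 on the log2 scale (adjusted p = 1.51e-08). Knockdown lamin B1 and H3K27me3 domains covered all 16 of its bins with all 3 marks, and H3K9me3 domains 11 of them. TENM3 overlaps TENM3-AS1 in the annotation, and whether counting used strand is not given in the sources used here.

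On chromosome 3, MITF and FOXP1 were both higher. MITF, a transcription factor of the melanocyte lineage, was at 2.96, 2.88, 1.87 and 1.92 CPM in controls and 6.00, 5.05, 4.55 and 4.53 CPM after knockdown. Within each kit the knockdown libraries were above the controls, and the log2 fold change was 1.07 ± 0.16 (adjusted p = 1.05e-05). FOXP1, a forkhead transcription factor, was at 4.51, 6.31, 6.80 and 6.84 CPM in controls and 11.3, 12.9, 12 and 10.1 CPM after knockdown, or 0.92 ± 0.13 higher on the log2 scale (adjusted p = 5.09e-06). In the Scramble controls FOXP1 was at 10.1 and 8.56 CPM, close to the knockdown libraries, whereas MITF was at 3.03 and 2.71 CPM. FOXP1 starts outside lamin B1 domains, and 70.8% of its body lies in the regions. Of the 6 bins MITF touches 5 carry all 3 marks, and of the 13 FOXP1 touches 9 do; these were all covered in the 3 knockdown lists.

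The 4 tested zinc finger genes with names in ZNF lie on chromosome 19, each with 1 bin of all 3 marks, and none of these bins was covered by knockdown lamin B1. All 4 bins were covered by knockdown H3K9me3 and H3K27me3 domains. ZNF440 was at 16.7, 18.5, 21.5 and 21.5 CPM in controls and 28.2, 29.4, 35.7 and 31.1 CPM after knockdown (log2 fold change 0.67 ± 0.08, adjusted p = 2.3e-07). Its groups did not overlap. ZNF577 differed by 0.57 ± 0.11 (adjusted p = 0.000177), but its Scramble libraries were at 2.48 and 1.82 CPM, far below the siNTC5 range of 7.01 to 8.36 CPM, and with them added as controls the adjusted p was 0.0849. ZNF700 differed by 0.45 ± 0.09 (adjusted p = 0.000135). ZNF180 had a log2 fold change of 0.19 ± 0.10 and was not called (adjusted p = 0.0751). Over all 345 tested ZNF genes the median was 0.30, with 188 higher and 46 lower. ZNF genes resemble each other in sequence, ZNF700 overlaps ZNF69 and ZNF577 overlaps FPR3, so their counts can be shared. In the 7 other tested genes, every bin with all 3 marks was covered by knockdown lamin B1. Of those genes 6 were called higher, among them ISX-AS1, which was tested only through its knockdown libraries. Over all tested genes 35.5% were called higher. A link between lamin B1 coverage and RNA was not tested. The other bins that the 7 genes touch were not counted.

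The remaining 3 genes differed less clearly. ZFP37, a zinc finger gene on chromosome 9, ranged from 3.06 to 4.60 CPM in controls and from 4.75 to 5.50 CPM after knockdown (0.42 ± 0.16, adjusted p = 0.0232), and was not called without siNTC5 replicate 3 (adjusted p = 0.0925) or siHNRNPK replicate 2 (0.0789), or in TruSeq or Ligation libraries alone (0.0914 and 0.139). WDR72, a WD-repeat gene on chromosome 15 known from enamel formation, ranged from 11.4 to 14.2 and from 13.3 to 19.2 CPM, overlapping, at 0.27 ± 0.11 (adjusted p = 0.0376). Its call was lost without siNTC5 replicate 2 or 4 (adjusted p = 0.167 and 0.0539) and without siHNRNPK replicate 2 or 3 (0.263 and 0.0823). It was also lost with DESeq2 (0.0506), without the kit term (0.0844), with unscaled totals (0.0736), in TruSeq or Ligation libraries alone (0.0745 and 0.321) and with Scramble controls added (0.489), where WDR72 was at 18.4 and 17.4 CPM, above 3 of the 4 knockdown libraries. KIAA1217 on chromosome 10 fell by 0.41 ± 0.10 (adjusted p = 0.00138). Its control libraries were at 25.0, 26.1, 33.2 and 33.8 CPM and its knockdown libraries at 25.2, 21.7, 19.6 and 21.2 CPM, and the groups overlapped by 1 library. In TruSeq libraries alone its log2 fold change was -0.12 (adjusted p = 0.417), while the test of a difference between kits gave an adjusted p of 0.107. None of the 11 genes was called in that test, which called 0.129% of all genes.

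The other 234 listed genes were too low to test. Of these, 158 (67.5%) had 0 counts in all 8 libraries, 38 (16.2%) had counts only in knockdown libraries and 3 (1.28%) only in controls. Over all 14345 untested genes the shares were 46.8%, 11.1% and 5.35%, and in bins with H3K27me3 alone they were 55.6%, 16.3% and 4.35%. Their summed level was 2.96 to 3.84 CPM in control libraries and 6.74 to 10.4 CPM in knockdown libraries, a ratio of means of 2.47. The same ratio was 2.32 for untested genes with H3K9me2 and H3K9me3, 2.48 with H3K9me2 and H3K27me3, 2.15 with H3K27me3 alone and 1.44 for all untested genes. SLFN12, in the uncovered stretch of chromosome 17, had 0, 4, 0 and 0 counts in controls and 6, 7, 5 and 4 after knockdown. LINC00698 ran the other way, with 9, 23, 12 and 9 counts in controls and 8, 6, 3 and 2 after knockdown. These 2 genes were picked with their values known. Of the 28 olfactory receptor genes listed, 26 had 0 counts in every library. OR1L4 had 2 counts over the 8 libraries and OR3A2, in the uncovered stretch of chromosome 17, had 1.

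Summed markers of other cell types were higher in the knockdown libraries too. The summed level of 5 fibroblast markers was 44.6 to 73.3 CPM in controls and 75.4 to 122 CPM after knockdown, of which COL1A1 was the sole marker with a mean of 1 CPM or more. That of 4 white blood cell markers was 0.109 to 0.593 and 0.725 to 0.906 CPM, and that of 3 endothelial markers 0.602 to 1.00 and 1.48 to 3.30 CPM, with VWF the sole marker at 1 CPM or more. The sum of the 6 epithelial markers was 2790 to 3270 CPM in controls and 4480 to 5560 CPM after knockdown. The part of these in the values above was not tested.

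Among genes that make or hold the marks, 7 of 11 tested genes of H3K9 methylation were called, 3 higher and 4 lower. EHMT2, also in this list, did not pass the filter on low counts and was not tested. The largest differences were ATF7IP, a SETDB1 partner, at 0.47 ± 0.06 (adjusted p = 5.44e-07) and UHRF1, at -0.44 ± 0.07 (adjusted p = 9.78e-06). Of 11 Polycomb repressive complex 2 genes, 7 were called, 2 higher and 5 lower. The core subunits EZH2, EED and SUZ12 had log2 fold changes of 0.02, 0.00 and -0.01 and were not called. Of 12 lamina genes, 11 were called, 2 higher and 9 lower, with LMNA at -0.80 ± 0.06, LMNB2 at -0.68 ± 0.06 and LMNB1, which encodes the protein profiled by ChIP, at -0.33 ± 0.05. Over all genes 71.5% were called, as given above.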

How the data were processed

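The regions and gene lists were chosen with earlier results of these data known. The authors deposited 7 domain lists, each domain with a score of unstated scale; how domains were called, whether input was used and whether replicates were pooled are not given in the sources used here. The submitters' processing notes name hg38, Bowtie2 2.5.1, fastp 0.23.2 and deepTools 3.1.3 for ChIP. Domain edges lie on 5 kb steps, apart from chromosome ends. Raw RNA counts per gene symbol were deposited by the authors; the submitters' processing notes name STAR 2.7.1a and featureCounts, with hg38 for the 8-library table and hg19 and hg38 for the Scramble tables.

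Coverage per 50 kb bin, runs and gene assignment (at least 50% of the body, RefSeq GRCh38.p14) were computed in Python 3.11.15. Of 28278 names in the count table, 95.5% matched a RefSeq symbol and 2.19% a synonym. RNA was tested with edgeR 4.0.16 in R 4.3.3 (filterByExpr, TMM, quasi-likelihood test, kit and treatment, Benjamini-Hochberg over 13933 genes, threshold 0.05). CPM are TMM-scaled, and Scramble values come from a scaling of all 10 libraries. The text names all 11 tested genes, the 3 longest runs, the 3 longest stretches without lamin B1 and the longest without H3K9me3 or H3K27me3. The promoters are those of the 4 genes with the largest rise and of KIAA1217, the sole gene that fell, with ZNF440 added. On simulated counts for 13933 genes, 50 of 55 genes changed 2-fold upward and 51 of 53 changed to 0.5-fold were recovered, and 8 unchanged genes were called. The simulation changed few genes and gave all genes the same dispersion, whereas 71.5% of genes were called in these data. These rates need not hold for the data.

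Same-numbered control and knockdown libraries correlated across genes in how they departed from their group's mean (r from 0.1 to 0.425), but numbers also mark the kit, and within a kit r was 0.00904 to 0.0582. A replicate block in place of kit called the same number of genes in the regions, 10. Alternatives were other scalings, DESeq2 1.42.0, filters, kits, left-out libraries, bin sizes, coverage limits and scores. Added after seeing the data were robust dispersion, unscaled totals and the windows and score limits of the overlap.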

Additional observations from a re-analysis of the deposited data

How the results depend on the processing

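With a replicate block in place of kit, 10 genes of the regions were called, 9872 of all genes were called, and HNRNPK was at -2.18; the pairing changed the call of none of the 11 named genes. No result changed direction. The count of called genes in the regions was 20 of 87 tested (23%, 19 higher) with no filter on low counts. That setting called 50.4% of all 21564 genes, and the share called higher in the regions was not above that of all genes. Of the 234 genes below the filter, 38 had counts only in knockdown libraries and 3 only in controls. The direction of the 19 can therefore follow from very low control counts, and it describes these genes and not the regions. The count was 3 of 11 when a log2 fold change of 1 or more in size was also required. ISX-AS1, tested only through its knockdown libraries, was among these 3. When any overlap assigned a gene, 23 of 42 were called (54.8%, 19 higher, 4 lower, against 71.5% of all genes). The count was 5 of 6 with at least 90% of the body, and 6 of 6 with bins of at least 80% coverage. The median log2 fold change was 1.72 with no filter and 0.28 with any overlap. These settings change which genes are counted. The genes added without the filter had at most 72 counts over the 8 libraries, so 1.72 rests largely on very low counts. The median over all genes in that setting is not given here. Over all genes, 2195 of 13933 were called with the limit on the fold change. With scores at or above each list's median, the regions shrank to 33.7 Mb, of which knockdown lamin B1 covered 99.6% and H3K27me3 94.8%; the cause was not tested.

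Leaving out 1 library gave 8 to 11 called genes in the regions, 9612 to 9997 over all genes, a median of 0.47 to 0.65 and HNRNPK at -2.25 to -2.13. WDR72, ZFP37 and ZNF180 are the genes whose calls changed when a library was left out; ZNF180 was called without siNTC5 replicate 2 (adjusted p = 0.0351) and without siHNRNPK replicate 1 (0.0382). With 1 domain list per antibody and siRNA, no chromatin difference has a replicate error, and the low counts of most genes in the regions limit RNA to 11 genes.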
